A study of Mus musculus with 4 samples.

Results

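The proteasome subunit genes were followed in NIH 3T3 cells, an immortalised mouse fibroblast line, in which the selenoprotein T gene (Selt, now Selenot) was targeted by RNA interference. Members were all genes on the array whose symbol begins with Psma, Psmb, Psmc, Psmd, Psme or Psmf and a digit, which gave 45 of 12347 named genes and 67 of 22534 probes. Of these, 35 genes with 47 probes had a value on all 4 arrays and could be tested, among 4754 such genes in all. The other 10 are described at the end as values. The symbols also took in 2 genes whose products are partners and not subunits, Psmc3ip and Psme3ip1.

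There were 2 knockdown groups, each of stably transfected cells under 150 µg/ml hygromycin B with 10% serum and 100 nM selenite, and each was set against cells carrying the empty pU6-m3 vector and kept in the same medium. siSelT-1 is directed at nucleotides 205 to 224 of the Selt mRNA and siSelT-5 at nucleotides 971 to 989, with 2 arrays for each construct, made from different cultures of knockdown cells at different times. Every array set Cy5-labelled knockdown RNA against Cy3-labelled vector RNA without a dye swap, so a dye effect of a probe cannot be told apart from the knockdown, except in siSelT-1 minus siSelT-5. The labels do not say whether the stable cells were clones or pools, nor whether arrays shared vector RNA. Values are the authors' log ratios, read here as log2 of knockdown over vector. The base is not stated, the direction follows the order in the sample titles and the dyes, and folds and signs rest on this reading. Selt itself could not be checked, as it was not among the named probes used here. Values were given for 7689 and 9232 probes with siSelT-1, and for 20268 and 18361 with siSelT-5. Over the 7038 probes that all arrays measured, the median log2 ratio was 0.19 and 0.09 for siSelT-1 replicates and 0.43 and 0.36 for siSelT-5 replicates. Ratios called centred are taken from these medians. Of 12 fibroblast markers 8 had a value on all arrays, of which 4 rose and 3 fell, against 45.7% and 8.04% of all genes tested. Pdgfra stood at 0.88 and Vim at 0.57 but Fn1 at -0.61, Col3a1 at -0.44 and Dcn at -0.37. Postn stood at -0.78 with siSelT-1 and 1.64 with siSelT-5, and this difference passed (limma, adjusted p = 0.0219). Of 7 markers of other cell types 3 had one, Pecam1 at 0.70 (endothelium), Des at 0.44 (muscle) and Lyz2 at -0.20 (macrophages). These are ratios without signal levels, so neither the presence of a marker nor its part in the results was tested.

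The proteasome degrades proteins that carry ubiquitin chains. Its core particle is a barrel of stacked rings, the outer ones of alpha subunits (Psma genes) that gate the entrance and the inner ones of beta subunits (Psmb genes), some of which cut the substrate. The regulatory particle caps the barrel: a ring of ATPases (Psmc genes) unfolds the substrate, further base subunits bind ubiquitin and shuttle proteins, and the lid (most Psmd genes) removes the ubiquitin chain. Other caps, the activators encoded by Psme genes, open the barrel without ubiquitin. Fibroblasts express the constitutive set, and interferon induces replacement beta subunits. Proteins removed from the endoplasmic reticulum, where selenoprotein T resides, are also degraded by the proteasome.

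With both constructs averaged, most core, lid and PA28 activator genes passed as higher than vector. The ATPase genes also had means above 0, from 0.11 to 0.37, but 0 of 5 passed. That count changed when siSelT-5 replicate 2 was left out. Of the 35 members 21 rose, 1 fell and 13 did not pass (limma, Benjamini-Hochberg adjusted p under 0.05 over 4754 genes, two-sided). Over all genes tested 45.7% rose and 8.04% fell. The median log2 ratio was 0.44 over the members and 0.25 over all genes. With arrays centred, 13 members rose and 2 fell, against 20.5% and 21.9% of all genes, and the medians were 0.17 and -0.02. All 13 were among the 21. These p-values rest on the spread within constructs, while the SDs given below (n = 4) also hold the gap between constructs. As deposited but fitted as 1 mean over the 4 arrays, that gap counts as spread. In that fit 16 members rose and 1 fell, against 29.7% and 4.27% of all genes. Psmd6, Psmd13, Psmd14, Psmf1 and Psme3ip1 lost their call there. With 1 siSelT-1 array left out, the fit takes its spread from the siSelT-5 pair. Without siSelT-1 replicate 1 limma called 0 members and 0 genes, although 19 members and 1846 genes had an unadjusted p under 0.05. Leaving out siSelT-1 replicate 2 instead gave 11 members higher and 0 lower, against 17.0% and 1.39% of all genes.

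**Figure D1:**
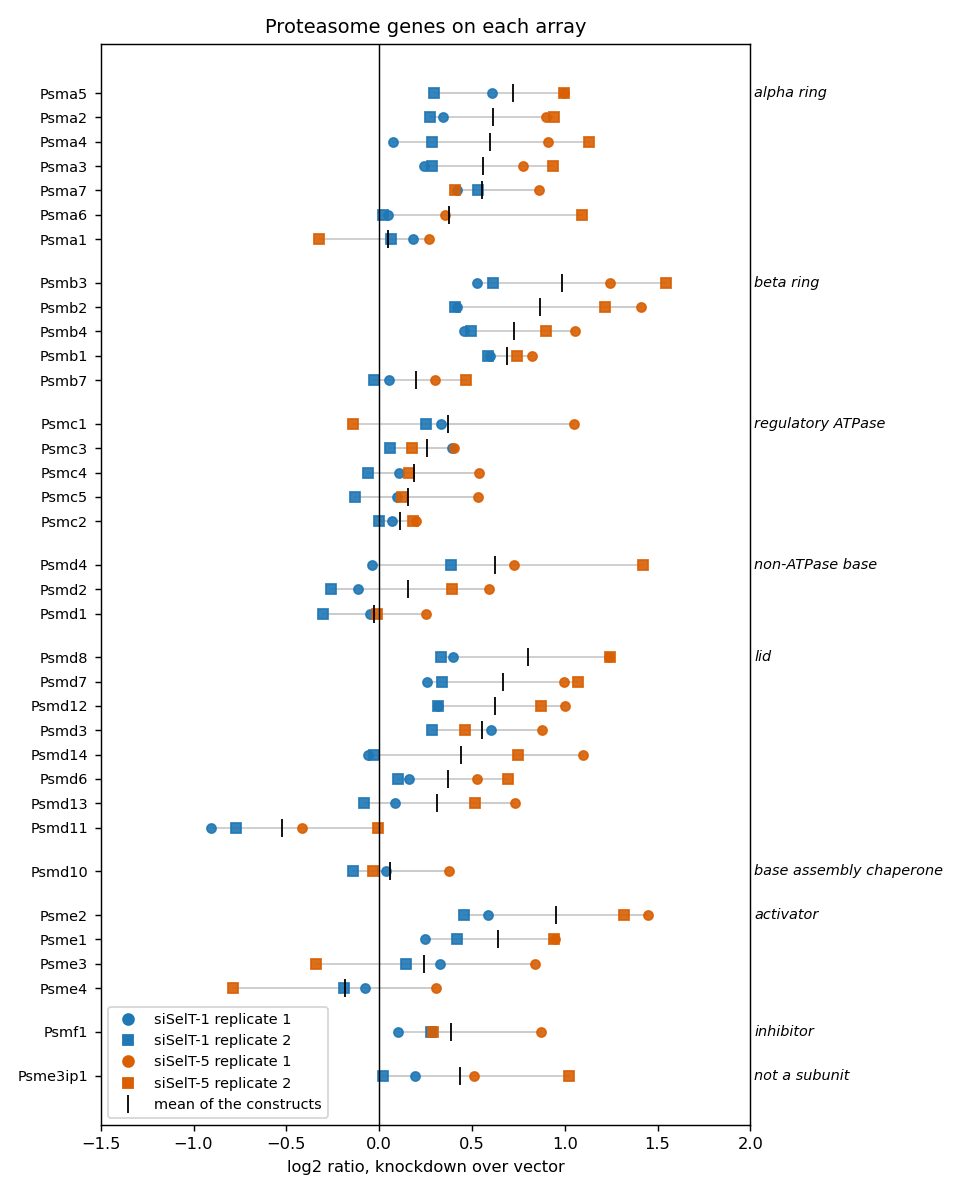
Log2 ratio of knockdown over vector (x axis) for the 35 proteasome genes with a value on all arrays, grouped by subunit class. Circles and squares are replicates 1 and 2 of siSelT-1 (blue) and siSelT-5 (orange), and the black tick is the mean of the constructs. The orange points lie to the right of both blue points for 27 genes, against 52.6% of all genes tested. Psmd11 is the gene with all 4 points below 0.

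The start regions of 5 members are printed so that the range of ratios can be set beside sequence. They are the highest core gene (Psmb3), the highest lid gene (Psmd8), the highest ATPase gene (Psmc1), the lowest member (Psmd11), and Psmd12, the higher member whose window held an antioxidant response core. Each is the 250 bases before the start of the gene, from RefSeq on GRCm38.p6, written 5′ to 3′ on the strand of the gene, with matches to 3 motifs in capitals: the antioxidant response core TGACNNNGC, bound by NFE2L1 and NFE2L2, the CCAAT box, bound by NF-Y, and CCGGAAG, the core of an ETS element. Both strands were searched.
Psmb3, chr11:97703184-97703433, plus strand: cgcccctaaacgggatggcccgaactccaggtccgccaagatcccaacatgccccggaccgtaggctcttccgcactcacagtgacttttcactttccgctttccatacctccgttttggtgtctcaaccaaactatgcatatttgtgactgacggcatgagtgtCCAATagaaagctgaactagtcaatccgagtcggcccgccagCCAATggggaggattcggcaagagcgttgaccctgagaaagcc
Psmd8, chr7:29180674-29180923, minus strand: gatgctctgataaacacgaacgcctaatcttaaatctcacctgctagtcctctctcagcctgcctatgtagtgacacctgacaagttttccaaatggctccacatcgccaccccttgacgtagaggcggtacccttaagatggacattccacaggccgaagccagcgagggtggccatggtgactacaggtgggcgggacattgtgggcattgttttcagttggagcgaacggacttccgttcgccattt
Psmd12, chr11:107479278-107479527, plus strand: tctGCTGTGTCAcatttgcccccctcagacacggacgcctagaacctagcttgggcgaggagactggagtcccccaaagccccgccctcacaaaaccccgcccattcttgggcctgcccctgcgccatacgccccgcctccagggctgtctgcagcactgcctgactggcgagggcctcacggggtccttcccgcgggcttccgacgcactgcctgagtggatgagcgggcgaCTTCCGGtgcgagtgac
Psmc1, chr12:100109952-100110201, plus strand: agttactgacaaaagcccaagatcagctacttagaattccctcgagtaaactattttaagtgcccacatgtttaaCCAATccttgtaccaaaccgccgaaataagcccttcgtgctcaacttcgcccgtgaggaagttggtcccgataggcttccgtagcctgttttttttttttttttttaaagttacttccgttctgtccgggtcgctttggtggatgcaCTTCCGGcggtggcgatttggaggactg
Psmd11, chr11:80428365-80428614, plus strand: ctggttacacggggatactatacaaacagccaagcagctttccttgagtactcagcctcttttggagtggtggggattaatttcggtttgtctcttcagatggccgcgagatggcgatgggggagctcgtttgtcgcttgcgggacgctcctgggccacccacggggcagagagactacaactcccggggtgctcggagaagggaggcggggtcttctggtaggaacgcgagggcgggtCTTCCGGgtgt

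In these windows the ETS core lay 10 bases before the start in Psmd12, 21 in Psmc1 and 4 in Psmd11, on the reverse strand in each, and no match of one motif overlapped another. A window was found for 39 of the 45 members. The ETS core stood in 12 of the 39 (30.8%), against 7.83% of all 27025 genes with a window and 17.6% of the 3930 tested genes with one. By class it stood in 3 of 5 ATPase genes, 5 of 9 base and lid genes and 1 of 11 alpha and constitutive beta genes, and by call in 3 of 17 genes that rose and 6 of 11 that did not pass. The antioxidant response core stood in 5 of the 39 (12.8%), against 11.5% of all genes and 13.7% of tested genes, and in 1 of the 17 that rose. The CCAAT box stood in 16 (41.0%), against 37.5% of all genes and 41.0% of tested genes. A match describes the letters of these windows and not a bound site.

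In the core particle 9 of 12 genes rose and 0 fell, against 45.7% and 8.04% of all genes, and the 3 others did not pass. The median was 0.61, or 0.34 centred, where 8 rose, against 20.5% of all genes. Among the constitutive beta genes Psmb3, which encodes a structural subunit, had log2 ratios of 0.53 and 0.61 with siSelT-1 and 1.24 and 1.55 with siSelT-5. All arrays lay above 0 and the siSelT-5 pair above the siSelT-1 pair, as in 44.9% and 52.6% of all genes. The mean was 0.98 ± 0.49 (SD, n = 4), or 1.98-fold (limma, adjusted p = 0.00161), higher than 97.9% of the genes tested. Psmb2, another structural subunit, followed at 0.42 and 0.41 with siSelT-1 and 1.41 and 1.22 with siSelT-5, a mean of 0.86 ± 0.53 (adjusted p = 0.00162). Both of its probes rose. Psmb4 stood at 0.46 and 0.49 with siSelT-1 and 1.05 and 0.90 with siSelT-5 (mean 0.73 ± 0.30, adjusted p = 0.00195). Psmb1 was the beta gene with the most even values, 0.60 and 0.59 with siSelT-1 and 0.82 and 0.74 with siSelT-5 (mean 0.69 ± 0.12, adjusted p = 0.00197). Psmb7 encodes the subunit that cuts after basic residues, and it was the only catalytic beta gene with values on all arrays. Its ratios were 0.05 and -0.03 with siSelT-1 and 0.30 and 0.47 with siSelT-5, and the mean of 0.20 did not pass (adjusted p = 0.0828).

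Of the 7 alpha ring genes 5 rose, against 45.7% of all genes: Psma5, Psma2, Psma4, Psma3 and Psma7. Psma5 had 0.61 and 0.29 with siSelT-1 and 0.99 on each siSelT-5 array, a mean of 0.72 ± 0.34 (SD, n = 4; limma, adjusted p = 0.00240). Psma2 had 0.34 and 0.28 with siSelT-1 and 0.90 and 0.94 with siSelT-5. Psma4 had 0.07 and 0.28 with siSelT-1 and 0.91 and 1.13 with siSelT-5, and Psma3 had 0.24 and 0.29 with siSelT-1 and 0.77 and 0.94 with siSelT-5. In each of the 3 the siSelT-1 pair lay below the siSelT-5 pair, as in 52.6% of all genes, and the means were 0.61, 0.60 and 0.56. Psma7 stood at 0.42 and 0.53 with siSelT-1 and 0.86 and 0.41 with siSelT-5. Its constructs overlapped, and its mean of 0.55 ± 0.21 (adjusted p = 0.00740) did not pass once arrays were centred (adjusted p = 0.0638). Psma6 had 0.05 and 0.02 with siSelT-1 and 0.36 and 1.09 with siSelT-5, and the mean of 0.38 missed the threshold (adjusted p = 0.0568). Psma1 had 0.18 and 0.06 with siSelT-1 and 0.27 and -0.32 with siSelT-5, a mean of 0.05 over 2 unlike probes, given further on.

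Of the 5 ATPase genes measured, Psmc1 to Psmc5, 0 rose and 0 fell in limma, against 45.7% and 8.04% of all genes. Their adjusted p ran from 0.0670 to 0.252, with 1 gene, Psmc3, at an unadjusted p under 0.05. Without siSelT-5 replicate 2, 4 of the 5 passed as higher, at 0.67 for Psmc1, 0.32 for Psmc3, 0.28 for Psmc4 and 0.26 for Psmc5, in a fit where 55.8% of all genes rose. Psmc3 also passed with the replicate number as a block. Their median was 0.19 log2, below the 0.25 of all genes, and it turned to -0.08 with arrays centred. Psmc1 was highest, with 0.33 and 0.25 under siSelT-1 and 1.05 and -0.14 under siSelT-5, so the siSelT-5 replicates lay on both sides of the siSelT-1 pair. Psmc2 was the closest to vector, at 0.07 and 0.00 with siSelT-1 and 0.20 and 0.18 with siSelT-5 (mean 0.11 ± 0.10, SD, n = 4, adjusted p = 0.252). Psmc3 had 0.39 and 0.06 with siSelT-1 and 0.41 and 0.17 with siSelT-5. Psmc4 had 0.11 and -0.06 with siSelT-1 and 0.54 and 0.16 with siSelT-5, and Psmc5 had 0.10 and -0.13 with siSelT-1 and 0.53 and 0.12 with siSelT-5. Their means were 0.26, 0.19 and 0.15. The median of the 5 was lower than that of the alpha ring, the beta ring and the lid on all 4 arrays. It was higher than that of the 3 base genes without ATPase activity on both siSelT-1 arrays, where these had medians of -0.05 and -0.26, and lower on both siSelT-5 arrays. Centring takes a single value from each array and cannot change the order of medians within it. Whether classes differ was not tested, since a class is a handful of genes and not a set of replicates.

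**Figure D2:**
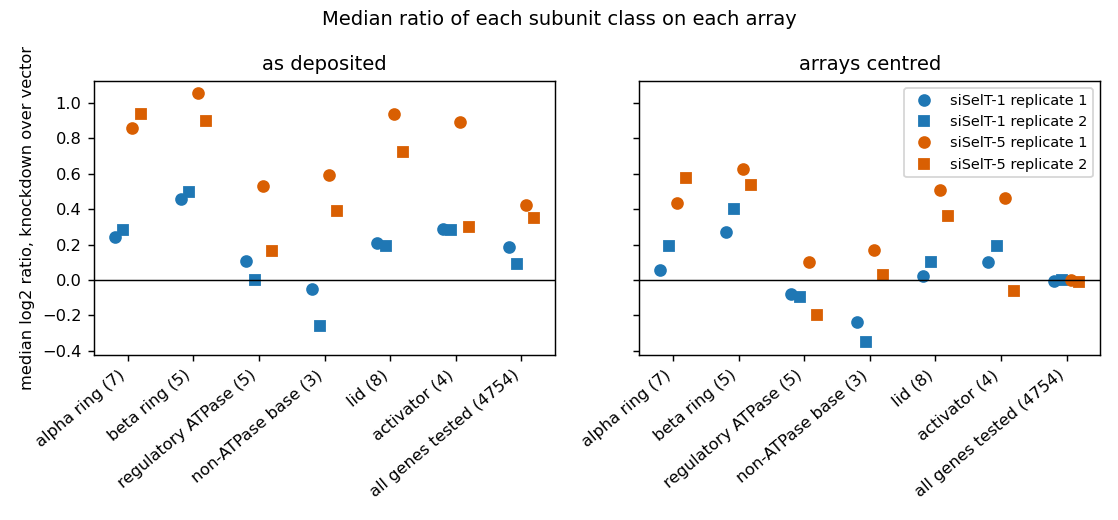
Median log2 ratio (y axis) of each subunit class on each array, as deposited (left) and with arrays centred (right), with the number of genes in brackets. Beta ring genes stood highest on both siSelT-1 arrays and ATPase genes at or below all genes except on siSelT-5 replicate 1.

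Of the base subunits without ATPase activity, Psmd4, a ubiquitin receptor, rose, and Psmd1 and Psmd2, large scaffold subunits, did not pass. Thus 1 of 3 rose, against 45.7% of all genes. Psmd4 had widely spaced values of -0.04 and 0.39 with siSelT-1 and 0.73 and 1.42 with siSelT-5, a mean of 0.62 ± 0.62 (SD, n = 4; limma, adjusted p = 0.0150). It did not pass with arrays centred (adjusted p = 0.128). Psmd2 stood below vector on both siSelT-1 arrays, at -0.11 and -0.26, and above it on both siSelT-5 arrays, at 0.59 and 0.39. Psmd1 had -0.05 and -0.30 with siSelT-1 and 0.25 and -0.01 with siSelT-5. It averaged -0.03 and passed as lower with arrays centred, at -0.29 (adjusted p = 0.0338).

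Of the 8 lid genes 7 rose, against 45.7% of all genes, and the other was the one member that fell. The 7 were Psmd8, Psmd7, Psmd12, Psmd3, Psmd14, Psmd6 and Psmd13. Psmd8, Psmd7 and Psmd12 also passed with arrays centred, where 20.5% of all genes rose. Psmd8 had 0.40 and 0.33 with siSelT-1 and 1.24 on each siSelT-5 array, a mean of 0.80 ± 0.51 (SD, n = 4), or 1.75-fold (limma, adjusted p = 0.00162). Psmd7 stood at 0.26 and 0.34 with siSelT-1 and 1.00 and 1.07 with siSelT-5 (mean 0.67 ± 0.43, adjusted p = 0.00214), and both of its probes rose. Psmd12 stood at 0.32 on each siSelT-1 array and at 1.00 and 0.87 with siSelT-5 (mean 0.63 ± 0.36, adjusted p = 0.00243). In these 3 genes the replicates of a construct lay close together and the constructs apart. Psmd14, the deubiquitinase of the lid, had -0.06 and -0.03 with siSelT-1 and 1.10 and 0.75 with siSelT-5. Only the siSelT-5 values lay above 0. The mean of 0.44 ± 0.58 passed for both constructs together (adjusted p = 0.0107), against the spread within constructs. It did not pass with arrays centred (adjusted p = 0.147), nor when fitted as 1 mean over the 4 arrays. Psmd3 had 0.60 and 0.29 with siSelT-1 and 0.88 and 0.46 with siSelT-5. Psmd6 had 0.16 and 0.10 with siSelT-1 and 0.53 and 0.69 with siSelT-5, and Psmd13 had 0.09 and -0.08 with siSelT-1 and 0.73 and 0.52 with siSelT-5. Their means were 0.56, 0.37 and 0.31. Psmd6 and Psmd13, but not Psmd3, had the siSelT-1 pair below the siSelT-5 pair, as did 52.6% of all genes.

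Psmd11 encodes a lid subunit that lies against the core particle and the ATPases. As the mean of 2 probes it had log2 ratios of -0.91 and -0.77 with siSelT-1 and -0.41 and -0.01 with siSelT-5, below 0 on all 4 arrays. The mean was -0.53 ± 0.40 (SD, n = 4), or 0.695-fold (limma, adjusted p = 0.00773), and -0.79 with arrays centred (adjusted p = 0.00643). Only 3.45% of all genes stood lower. Its probes averaged -0.28 and -0.77, both below 0, and only the second passed. On siSelT-5 replicate 2 they had opposite signs, at 0.65 and -0.66. With siSelT-1 alone Psmd11 fell (-0.84, adjusted p = 0.0323). With siSelT-5 alone it stood at -0.21 (adjusted p = 0.244) and passed as lower only with arrays centred (-0.60, adjusted p = 0.0311). The constructs did not differ past the threshold (-0.63, adjusted p = 0.0878).

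Among the activators the pair that forms PA28, an interferon-inducible cap, rose, and the other 2 did not pass. This count of 2 of 4 is near the 45.7% of all genes that rose. Psme2 had 0.59 and 0.46 with siSelT-1 and 1.45 and 1.32 with siSelT-5. The mean was 0.95 ± 0.50 (SD, n = 4), or 1.94-fold (limma, adjusted p = 0.00161), higher than 97.5% of genes. Psme1 stood at 0.25 and 0.42 with siSelT-1 and 0.95 and 0.94 with siSelT-5 (mean 0.64 ± 0.36, adjusted p = 0.00246). A further Psme1 probe, without a value on siSelT-1 replicate 1, stood at -0.15, 0.49 and -0.05. Both genes kept their call with arrays centred. Psme3, the nuclear PA28 gene, had 0.33 and 0.14 with siSelT-1 and 0.84 and -0.34 with siSelT-5, and Psme4, for PA200, had -0.08 and -0.19 with siSelT-1 and 0.31 and -0.79 with siSelT-5. For both, the siSelT-5 replicates had opposite signs and were over 1 log2 unit apart.

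The remaining tested members lie outside the finished particle. Psmf1, for the proteasome-binding protein PI31, had 0.10 and 0.28 with siSelT-1 and 0.87 and 0.29 with siSelT-5, and Psme3ip1, for a PA28 partner, had 0.19 and 0.02 with siSelT-1 and 0.51 and 1.02 with siSelT-5. Psmf1 rose to 0.39 ± 0.34 (SD, n = 4; limma, adjusted p = 0.0375) and Psme3ip1 to 0.44 ± 0.44 (adjusted p = 0.0203). Neither passed with arrays centred (adjusted p = 0.434 and 0.271). Psmd10, a chaperone that helps assemble the base, had 0.04 and -0.14 with siSelT-1 and 0.38 and -0.03 with siSelT-5. It averaged 0.06 and did not pass (adjusted p = 0.637).

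Each alone, the constructs gave unequal numbers of calls. With siSelT-1 4 members rose, Psmb1, Psmb3, Psmb4 and Psme2, and Psmd11 fell (limma, all at an adjusted p of 0.0323 to 0.0482). Over all genes 10.3% rose and 3.37% fell. With siSelT-5 24 members rose and 0 fell, with 25 at an unadjusted p under 0.05, against 47.6% of all genes that rose and 6.29% that fell. With arrays centred siSelT-1 had 0 members higher, with 9 of either direction at an unadjusted p under 0.05, and 1 lower, against 3.83% and 5.07% of genes, and siSelT-5 had 14 higher and 1 lower, against 19.2% and 20.0%. The member medians were 0.19 with siSelT-1 and 0.67 with siSelT-5, beside 0.14 and 0.375 for all genes. The siSelT-1 replicates were more alike, with a root mean square SD over genes of 0.164 against 0.349 for siSelT-5, while the fit gave both constructs a common spread. With the siSelT-1 arrays fitted alone 14 of 35 members rose and 1 fell, against 30.5% and 11.5% of 4968 genes. With the siSelT-5 arrays fitted alone 13 of 41 members rose and 0 fell, against 11.1% and 17.7% of 9711 genes.

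siSelT-1 minus siSelT-5 asks whether the constructs differed, and a dye effect cancels here. In limma 0 members passed, at a lowest adjusted p of 0.0543, and 20 had an unadjusted p under 0.05. Over all genes 0.021% passed as higher and 0.0421% as lower. The median difference was -0.54 over the members and -0.26 over all genes, or -0.29 and -0.01 centred. In 27 of 35 members both siSelT-1 values lay below both siSelT-5 values, in 0 above, and in 8 they overlapped. Among all genes 52.6% lay below and 11.9% above. With arrays centred, 20 members lay below and 3 above, against 32.0% and 28.3% of genes. By class the count below was 10 of 12 core genes, 10 of 11 base and lid genes without ATPase activity, 2 of 4 activators and 3 of 5 ATPases. With arrays centred these counts were 8, 9, 2 and 0. The widest differences were those of Psmd14, at -0.97 (95% interval -1.42 to -0.52), Psmb2 at -0.90 (-1.30 to -0.50) and Psmd4 at -0.90 (-1.61 to -0.19). Psmb1 differed by -0.19, with an interval of -0.57 to 0.18. Without siSelT-5 replicate 1, 18 members passed as lower and 2 as higher, against 28.0% and 9.76% of all genes. Without replicate 2, 20 passed as lower, against 31.4% of all genes. The fit then takes its spread from the siSelT-1 pair.

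**Figure D3:**
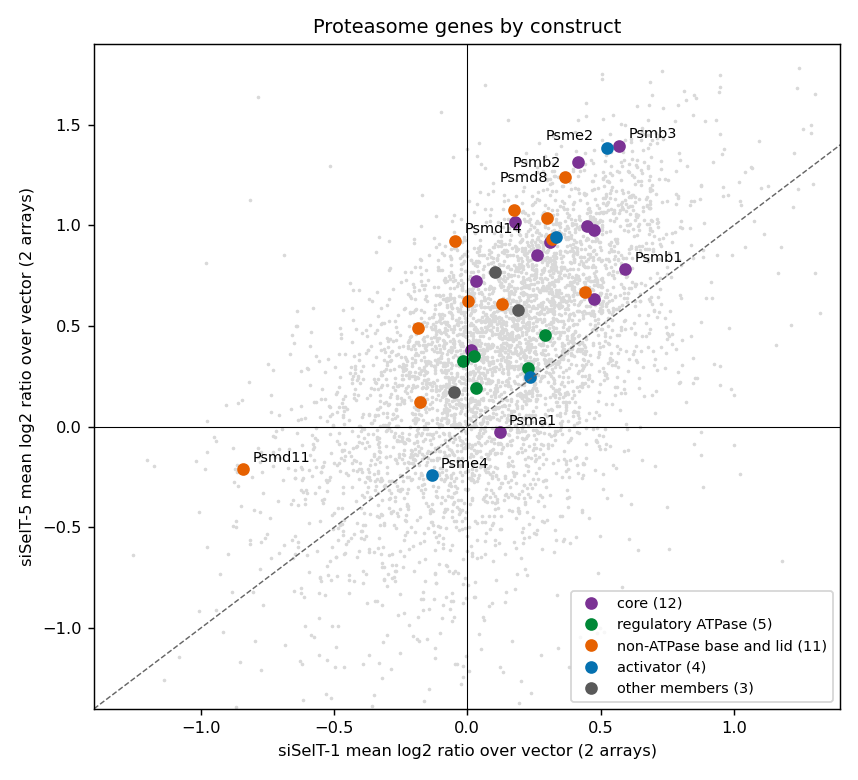
Mean log2 ratio over vector with siSelT-1 (x axis) and siSelT-5 (y axis), 2 arrays each, for the 35 proteasome genes by class, over all genes tested (grey, those beyond the axes not drawn). The dashed line marks equal ratios, and Psma1 and Psme4 are the members that lie below it.

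A gene with several probes was represented by their mean, and its probes did not always agree. Of the 23 members with 1 probe on all arrays 17 rose and 0 fell (median 0.56), and of the 12 with 2 probes 4 rose and 1 fell (median 0.17). Over all genes 46.2% of those with 1 probe and 43.6% of those with more rose. The 2 probes of a member lay 0.39 log2 units apart at the median, and had opposite signs in 5 of 12 genes. For all 751 genes with 2 probes the gap was 0.295, with opposite signs in 33.2%. For Psma1 one probe stood at 0.63 and rose, and the other at -0.54 and did not pass. For Psmd13 one stood at 0.72 and rose, and the other at -0.09. For Psmb7 and Psmd1 too, 1 probe rose, to 0.45 and 0.28, beside one at -0.05 and -0.33 that did not pass. Of the ATPases Psmc4 and Psmc5 had 2 probes, none of which passed for both constructs together. For siSelT-5 against vector, both genes had a probe that passed as higher. Of all probes 46.7% did, a share per probe and not per gene with 2 probes. Which probe measures the transcript better was not tested, as the table gives no signal levels.

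**Figure D4:**
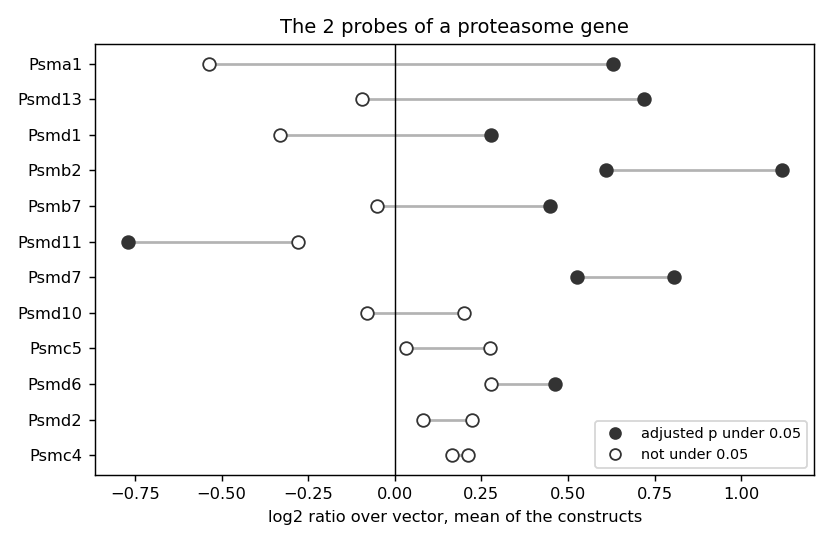
Log2 ratio over vector, mean of the constructs (x axis), of the 2 probes of each of 12 proteasome genes, ordered by the gap between them. Filled points had an adjusted p under 0.05 when each probe was tested alone, and Psma1, with 0.63 and -0.54, has the widest gap.

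The 10 members without a full set of values each lacked at least 1 siSelT-1 value on every probe. The replacement beta genes were among them. Psmb8 and Psmb9, which interferon induces, had single siSelT-5 values per probe of -0.92 and -1.30 for Psmb8 and -0.50 for Psmb9. Psmb11, the thymus-specific subunit, had 1 value, -0.68. The probes of Psmb10 stood at -0.18 and 0.33 and at 0.53 and 0.64 with siSelT-5. Of the catalytic constitutive genes, Psmb5 had -0.65 on siSelT-1 replicate 2 and 0.60 and 0.32 with siSelT-5, and Psmb6 had 0.11 on siSelT-1 replicate 1 and -0.14 on siSelT-5 replicate 1. The sixth ATPase gene, Psmc6, had siSelT-5 values of -0.15 and -0.51 on one probe and -0.48 on the other, which also had 0.03 on siSelT-1 replicate 2. The base chaperone genes Psmd5 and Psmd9 had siSelT-5 values from -1.70 to 0.05 and from -0.56 to 0.40. Psmc3ip, for a meiotic recombination factor, had 0.44 on siSelT-1 replicate 2 and 0.36 and 0.77 with siSelT-5.

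Low siSelT-5 values of such probes were general. The 7460 probes with both siSelT-5 values and no siSelT-1 value had a median siSelT-5 ratio of -0.63, against 0.38 for the probes shared by all arrays. The 9 member probes of the first kind had a median of -0.33 and ran from -1.65 to 0.58, and the 47 member probes of the second kind had a median of 0.67. A probe of Psma3 of the first kind, at -2.20 and -1.11, gave the lowest mean. The share of probes with values thus moved with the ratio, and its part in the ratios was not tested.

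Other genes of the pathway were read from lists of its parts, to be set beside the 45.7% of all genes that rose and 8.04% that fell, or 20.5% and 21.9% with arrays centred. Of 11 further proteasome parts and assembly genes 6 rose and 1 fell (limma, median 0.41; 3 and 2 with arrays centred), near those shares at this number of genes. The core assembly chaperone gene Psmg1 had 1.31 and 1.30 with siSelT-1 and 0.52 and 1.01 with siSelT-5, a mean of 1.03 ± 0.37 (SD, n = 4; adjusted p = 0.00181). Pomp, for the factor that completes the core, rose to 0.69 and Ecpas, for a proteasome scaffold, to 0.52, Ecpas as deposited only (centred adjusted p = 0.0526). Uchl5, for a deubiquitinase of the regulatory particle, fell, with -0.50 and -0.74 with siSelT-1 and -0.79 and -0.81 with siSelT-5 (mean -0.71 ± 0.14, adjusted p = 0.0022). Of 6 regulators of proteasome genes 1 rose and 2 fell, or 1 and 4 with arrays centred. Nfe2l1, which encodes the factor that induces proteasome genes when the proteasome is inhibited, rose to 0.64 ± 0.15 (adjusted p = 0.00241), with 0.58 and 0.48 with siSelT-1 and 0.83 and 0.69 with siSelT-5, also with arrays centred. Nfe2l2 fell to -0.51 and the partner gene Mafg to -0.35 (adjusted p = 0.0119 and 0.04998), and Nfyb, a subunit of NF-Y, stood at -0.16 and passed as lower only with arrays centred (adjusted p = 0.240 and 0.0192).

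Of 21 genes of endoplasmic reticulum-associated degradation, which feeds the proteasome, 8 rose and 3 fell (limma, median 0.13; 4 and 6 with arrays centred), so that the share that rose was no higher than over all genes. Vcp, for the ATPase that extracts proteins from the membrane, rose to 0.96 ± 0.53 (SD, n = 4; adjusted p = 0.00161). The ubiquitin ligase gene Rnf5 rose to 0.64, Edem2 to 0.58 and the membrane channel gene Derl1 to 0.60. The 3 that fell were the ubiquitin-conjugating enzyme gene Ube2j1, at -0.62, Ubxn4, at -0.37, and Ufd1, a Vcp cofactor gene, at -0.34, named after their values were seen. Of the ubiquitin-like and activating genes 2 were measured: Nedd8 rose to 0.49 (adjusted p = 0.0198) and Uba3 stood at -0.34 (adjusted p = 0.269).

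Beside other complexes of similar build, the proteasome genes stood as follows. The COP9 signalosome, whose subunits resemble those of the lid, had 7 of 9 genes higher and 0 lower in limma, with a median of 0.26. Of all genes 45.7% were higher and 8.04% lower. With arrays centred 1 COP9 gene was higher, Cops9, against 20.5% of all genes. Cops9, Gps1, Cops7a and Cops2 stood at 0.61, 0.64, 0.39 and 0.26. The CCT chaperonin, another cytosolic complex of stacked rings, had 5 of 6 higher and 0 lower, with a median of 0.52. With arrays centred 2 were higher, Tcp1 and Cct8, and the shares of all genes are those just given. Tcp1, Cct8, Cct3 and Cct2 stood at 0.87, 0.84, 0.54 and 0.43. The medians of the 35 proteasome genes, 0.44, and of the 12 core genes, 0.61, lay between these medians and above both. The lists were not tested against each other.

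**Figure D5:**
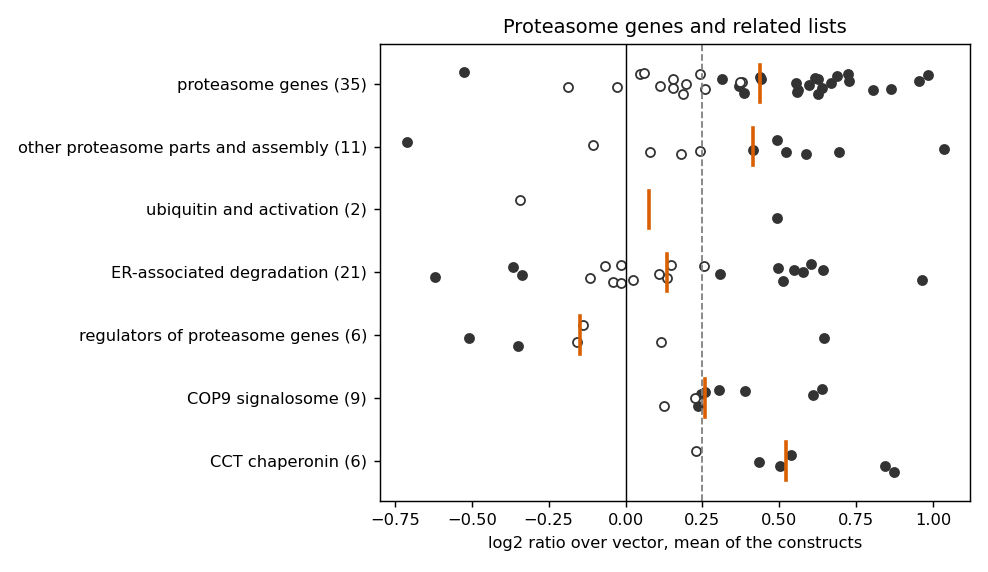
Log2 ratio over vector, mean of the constructs (x axis), of the proteasome genes and 6 related lists, with the number of genes in brackets. Filled points had an adjusted p under 0.05, orange bars are list medians, and the dashed line is the median of all genes, 0.25. The proteasome genes run from -0.53 to 0.98.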

How the data were processed

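Two-colour arrays of 4 knockdown samples, 2 per construct, were used. The authors deposited 1 log ratio per probe and array, read here as log2, and its base, centring, background correction and filter are not given in the sources used here. Per the labels' protocols, cDNA was made from 10 to 15 µg of Trizol RNA with oligo dT and labelled with Cy3 or Cy5. Probes were named from the platform annotation: 18129 had 1 gene name, 140 several and 4265 none, and only the first were used. A gene was the mean of its probes with a value on all 4 arrays. A mean per construct was estimated by lmFit and eBayes (limma 3.58.1, R 4.3.3), with 2 residual degrees of freedom and Benjamini-Hochberg adjustment over 4754 genes, two-sided, at 0.05. For both constructs, the mean of the 2 construct means was tested against 0 with the spread within constructs, which leaves out the gap between them. With 2 arrays per construct their number limits the precision, and no signal or depth is known. The script was tested on simulated data in which both constructs had the same spread and most genes were unchanged. These arrays differ in both respects, so that test does not gauge the calls given here. Members were taken by symbol and described by class, all of them named. Of each related list up to 4 genes with the smallest unadjusted p for both constructs were named. Members and lists were chosen with earlier results of these data known. Alternatives changed the centring, scaling, probe filter, probe averaging, spread, replicate block and arrays used. Deviations of same-numbered replicates correlated at 0.0758 across genes, so the numbers were not taken as pairs.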

Additional observations from a re-analysis of the deposited data

How the results depend on the processing

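Several settings moved the counts. With arrays centred, members higher with both constructs numbered 13 in place of 21, with siSelT-1 0 in place of 4 and with siSelT-5 14 in place of 24, and lower ones 2 in place of 1 with both constructs and 1 in place of 0 with siSelT-5. With arrays scaled, 3 were lower with both constructs, 3 with siSelT-1 and 1 with siSelT-5, against 24.4%, 17.0% and 15.8% of all genes. With siSelT-5 13 were then higher, against 14.9% of all genes. With the looser probe filter siSelT-1 had 0 higher and 0 lower, against 0.697% and 0.415% of all genes. siSelT-5 had 1 lower there, against 7.6%. With each probe tested alone siSelT-5 had 1 gene with a lower probe, beside 6.76% of all probes, a share per probe and not per gene. With the replicate number as a block siSelT-1 had 0 higher and 0 lower, against 0.526% and 0.21% of all genes. Both constructs had 23 higher there, against 45.4%. With 1 mean over the 4 arrays, whose spread includes the gap between constructs, 16 were higher and 1 lower, against 29.7% and 4.27% of all genes. With each construct's arrays fitted alone, siSelT-1 had 14 higher and siSelT-5 13, against 30.5% and 11.1% of genes. Leaving out each array in turn gave 0 to 26 higher and 0 to 2 lower with both constructs, 0 to 15 higher and 0 to 1 lower with siSelT-1, 18 to 29 higher and 0 to 1 lower with siSelT-5, and 0 to 2 higher and 0 to 20 lower in siSelT-1 minus siSelT-5. With both constructs, the sign of 9 of 35 members changed with arrays centred, 7 with arrays scaled and 0 to 3 with an array left out, Psme4 among them (0.09 without siSelT-5 replicate 2), none from one call to its opposite. Where a value turned that had a call on either side, and for the classes, the turns were the ATPase median (-0.079 centred, -0.088 scaled), Psmd1 (0.28 by probe), Psma1 (0.86 by probe) and Psma3 (-0.40, siSelT-5 arrays alone) with siSelT-5, Psmb7 with siSelT-5 (-0.011 centred, -0.017 scaled) and Psme3 in the difference (-0.60 to 0.58 with each siSelT-5 array left out). Values by probe are those of the probe with the smallest unadjusted p. The other probe stood at -0.33 for Psmd1 with both constructs and at -0.92 for Psma1 with siSelT-5. The cause of the turns was not tested. Background correction could not be varied, as spot intensities were not used here.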
